A study of Rattus norvegicus with 8 samples.

Results

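The genes described here are 8 serotonin receptor genes of the rat amygdala: Htr1a, Htr1b, Htr2a, Htr2c, Htr3a, Htr4, Htr5a and Htr7. They were chosen by name, and each was read from every probe set (a group of short probes for one transcript) that the array's annotation assigns to that symbol alone, which gave 15 of the 31042 probe sets that are not controls. They stand among 14217 genes named on the arrays. The study profiled the basolateral amygdala (its basal and lateral nuclei), cut out by laser on the side of the electrode, on 8 Affymetrix rat genome arrays. Epileptogenic rats had been stimulated in the amygdala until they developed status epilepticus (at least 40 of the discharges that the labels call HAFDs during its first 3 h) and had shown no spontaneous seizures by the end of the study. Control rats had been operated on and not stimulated. All rats were habituated to the chamber in 5 sessions and trained on day 8 after stimulation with a footshock (1.5 mA, 1 s) and a tone (75 dB, 20 s) in 2 trials, and tissue was taken 3 h later. In paired training the tone ended with the shock, and in unpaired training the shock came before the tone. The 4 groups were control unpaired (CU), control paired (CP), epileptogenic unpaired (EU) and epileptogenic paired (EP), each with 2 arrays, called A and B. For each array, amplified RNA of 2 rats was pooled, so that 16 rats were measured. No group went without shock and tone, so a lasting difference between epileptogenic and control rats and a different answer to training cannot be told apart. The labels used here give no strain, sex or age.

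Serotonin reaches the amygdala from neurons of the raphe nuclei, and its effect on a cell depends on which receptors that cell carries. The HTR2 receptors couple to Gq and phospholipase C and mostly excite, the HTR4 and HTR7 receptors couple to Gs and raise cyclic AMP, and the HTR1 and HTR5A receptors couple to Gi/o and mostly inhibit. HTR3A differs from all of them, being a subunit of a channel that serotonin opens directly. In the basolateral amygdala these receptors act on principal neurons, on interneurons and on incoming axons, and they are known for their part in fear and anxiety.

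Signals of the 8 arrays had medians between 29.0 and 43.2 intensity units. Probe sets were tested where their mean log2 signal over all arrays was above 4.35 (a signal of 20.3, the 40th percentile), which 18625 did. Of the 15 receptor probe sets 7 lay above this level and 8 below it, and 6 of the 8 genes had at least 1 above it. The exceptions were Htr1a and Htr7, which are given as values with no test. The nearest probe sets to the level were that of Htr1b (mean log2 signal 4.45) on the upper side and that of Htr1a (3.99) on the lower side. A probe set under the level is called dim here, not absent, because no detection call was used. The leading probe set of Htr2c stood far above the level, at 9.98, and the other tested receptor probe sets lay at 5.37 or lower. The signals of different probe sets do not rank the abundance of different genes.

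**Figure D1:**
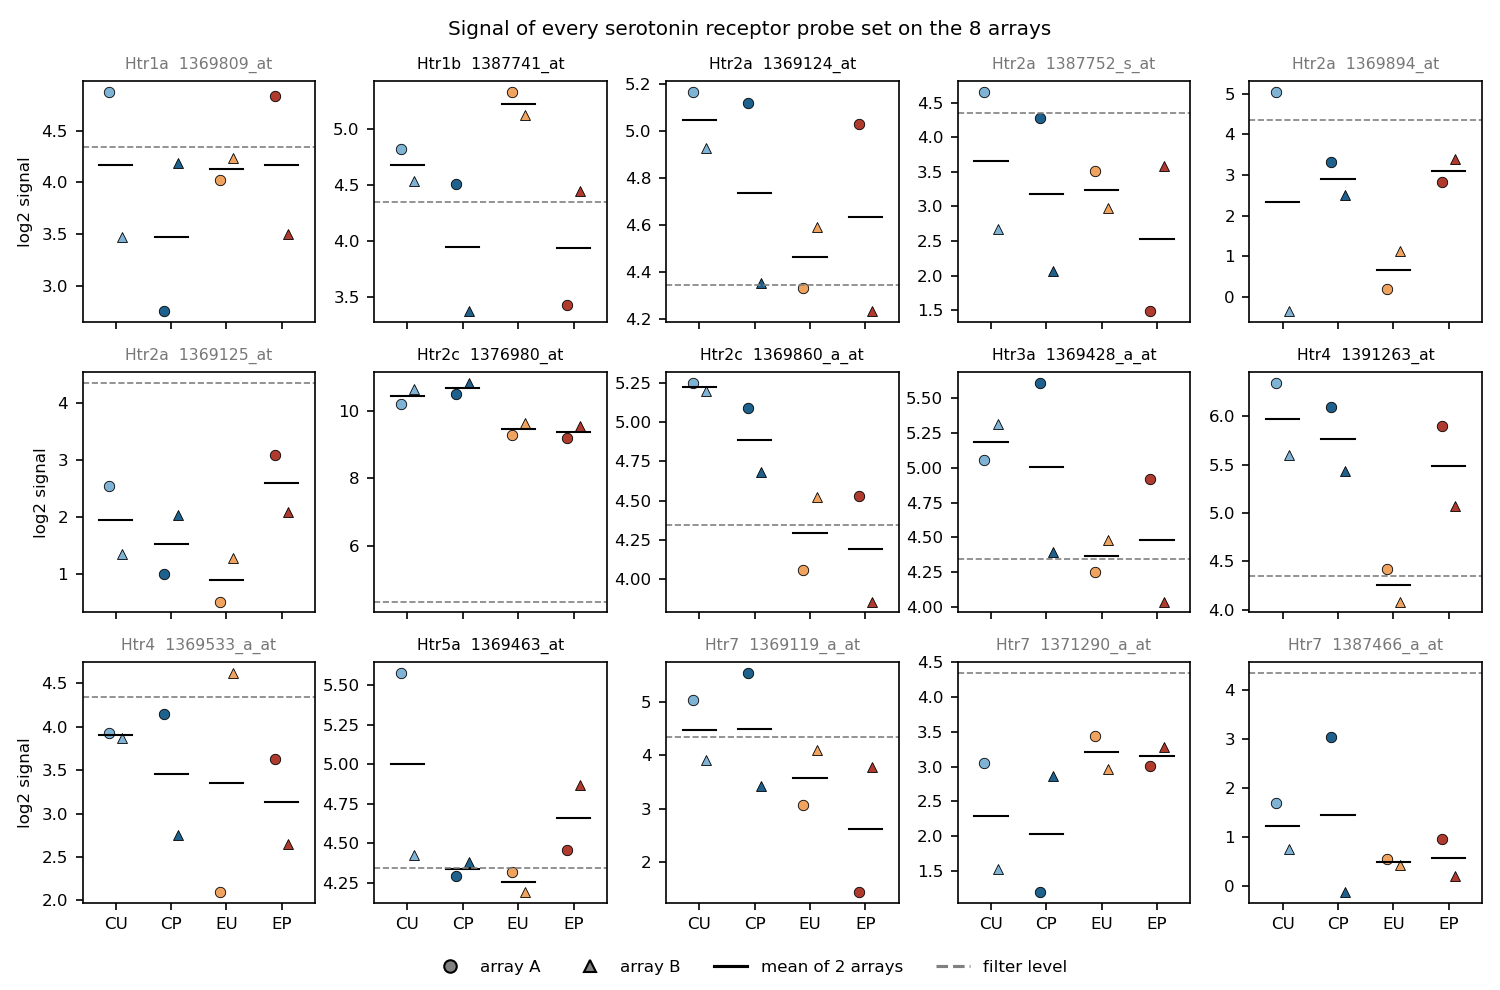
Log2 signal of each of the 15 serotonin receptor probe sets on every array, in the 4 groups control unpaired (CU), control paired (CP), epileptogenic unpaired (EU) and epileptogenic paired (EP). Circles are arrays A, triangles arrays B, short lines the mean of the 2 arrays and the dashed line the filter level of 4.35; panels with grey titles are probe sets whose mean lies under it, and the vertical scales differ between panels. Only the 2 Htr2c probe sets have all epileptogenic arrays below all control arrays.

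The comparison of 4 epileptogenic with 4 control arrays asks which transcripts differ in the amygdala after stimulation and status epilepticus. Control rats were not stimulated, so stimulation, status epilepticus and developing epilepsy cannot be told apart in it. Among the receptors, Htr2c fell. Its leading probe set was 2.18-fold lower in epileptogenic rats, and no other receptor passed the test, which was limma with Benjamini-Hochberg adjustment over all 18625 probe sets. The count was thus 1 of 6 tested genes, against 3.63% of all tested probe sets that passed, made up of 0.827% that were lower and 2.81% that were higher (523 higher and 154 lower probe sets, or 377 and 12 when each array was centred on its median). With the replicate letter as a block, Htr4 passed as well, which made 2 of 6 genes against 16.2% of all probe sets (8.65% lower). Differences of 5 of the 6 genes were below 0, with a median of -0.51 on the log2 scale. The median over all tested probe sets was -0.11, and 60.2% of them were below 0.

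Htr2c encodes the 5-HT2C receptor, a Gq-coupled receptor whose transcript is edited and which is known for its effects on feeding, anxiety and seizure susceptibility. Its leading probe set, 1376980_at, gave signals of 1189 and 1595 in the CU arrays A and B and of 1445 and 1822 in the CP arrays. The epileptogenic signals were 627 and 806 in EU and 588 and 743 in EP. The highest epileptogenic array therefore lay under the lowest control array, and in each of the 4 groups array B was brighter than array A. On the log2 scale the control mean was 10.55 ± 0.26 (SD, n = 4) and the epileptogenic mean 9.42 ± 0.21. The difference of -1.13 ± 0.19 (SE) had an adjusted p of 0.0164 in limma (95% interval of the difference -1.56 to -0.69), and the adjusted p was 0.000207 with the letter as a block. Of all tested probe sets, 1.49% had a difference as low as this one or lower.

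The Htr2c difference was present after both trainings. It was -0.96 ± 0.27 (SE, log2) after unpaired and -1.30 ± 0.27 after paired training, with adjusted p-values of 0.203 and 0.0895 in limma, and of 0.0078 and 0.00187 with the letter as a block. Over all tested probe sets, 0.317% and 0.532% passed after unpaired and paired training, and 7.01% and 4.62% with the block. In the A arrays by themselves Htr2c differed by -1.11, and in the B arrays by -1.14. Ordered by group mean, CP (10.66) came before CU (10.43), EU (9.47) and EP (9.37). CP and CU differed by 0.24 ± 0.27 and EP and EU by -0.10 ± 0.27, neither more than its error, so that the step in this order lay between the control and the epileptogenic groups.

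A further Htr2c probe set, 1369860_a_at, was much closer to the filter level and had the same direction. Its signals were 38.1 and 36.8 in CU, 34.2 and 25.7 in CP, 16.7 and 23.0 in EU and 23.1 and 14.5 in EP. Again all epileptogenic arrays lay below all control arrays, but 2 of the 4 epileptogenic signals were under the level itself. The difference was -0.82 ± 0.38 (SE, log2) and did not pass in limma (adjusted p = 0.295, and 0.160 with the block). Both Htr2c probe sets were thus among the probe sets whose groups did not overlap, and the other 5 tested receptor probe sets were not, against 15.1% of all tested probe sets that did not overlap and 7.77% that did not overlap and were lower in epileptogenic rats. The epileptogenic mean log2 signal of 1369860_a_at, 4.24, lay under the filter level, and its control mean, 5.06, above it. This probe set was tested only through its high control arrays, so its place in the count supports nothing about Htr2c.

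With 1 array left out, the difference of the leading probe set lay between -1.23 and -1.02. The adjusted p was 0.0570 without control unpaired B (difference -1.02), 0.0604 without control paired B (-1.04) and 0.0605 without epileptogenic paired A (-1.04), and it stayed under 0.05 in the other 5 of these 8 fits. It was 0.141 with each array centred on its median (difference -1.02) and 0.0610 without an intensity trend in the prior variance (same difference).

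**Figure D2:**
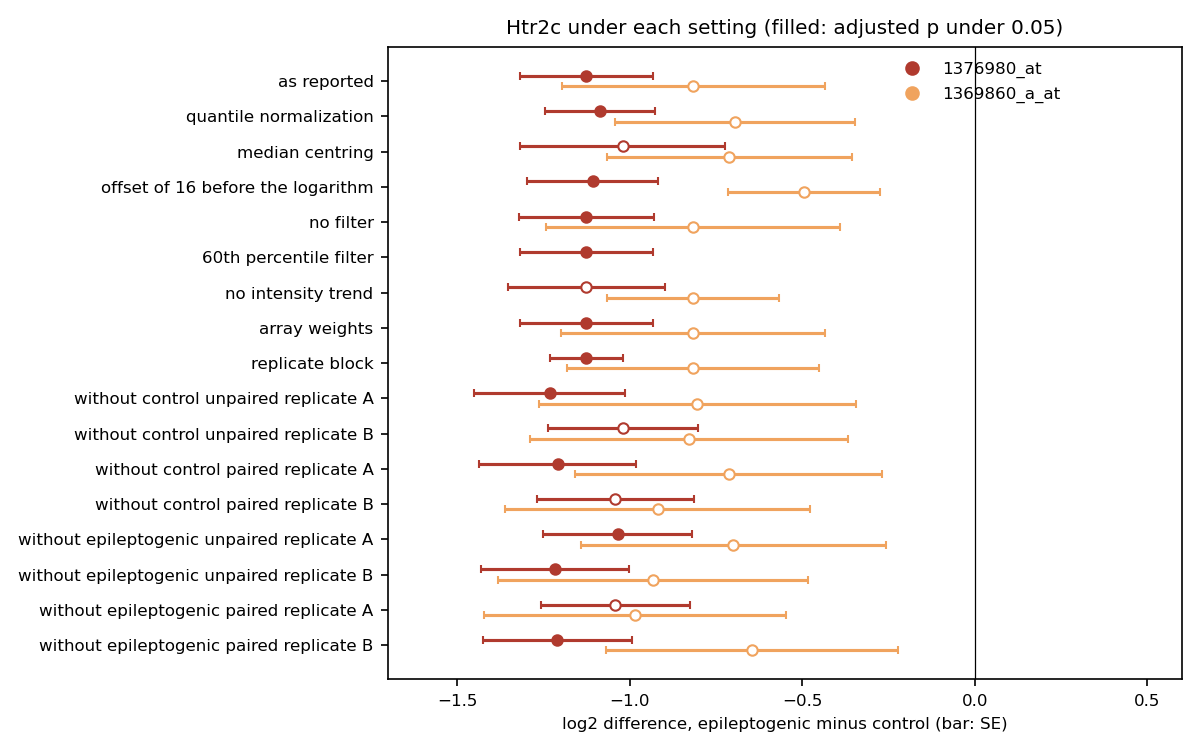
Log2 difference of Htr2c, epileptogenic minus control, for probe sets 1376980_at (red) and 1369860_a_at (orange) in the fit as reported and under each other setting; bars are SE, and filled points have an adjusted p under 0.05. All points lie left of 0, those of 1376980_at between -1.23 and -1.02, and 1369860_a_at has no point at the 60th percentile filter, which it does not pass.

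Cell type markers moved with the same contrast, and their part in the Htr2c difference was not tested. Sums of marker signals below cover every gene of a list that has a probe set, dim ones included, and the counts of genes that passed stand against 0.827% lower and 2.81% higher among all tested probe sets. The sums add linear signals, so the brightest gene of a list weighs most in its sum. That gene was Gja1 for astrocytes, Gad1 for interneurons, Penk for striatal and central amygdala neurons and Ttr for choroid plexus. In bulk tissue fewer cells of a type and less RNA per cell cannot be told apart. Of 5 tested excitatory neuron genes (Tbr1, a 6th with a probe set, was dim) all differences were below 0 with a median of -0.87, although only Neurod6, a transcription factor gene of these neurons, passed, with -1.33 ± 0.29 (SE, log2; limma adjusted p = 0.0407). It passed in 1 of the 8 fits without 1 array. Their summed signal per array was 324 to 410 in epileptogenic and 669.7 to 857 in control arrays. For interneuron genes the sum was 3948 to 6509 against 6144 to 8013, and 1 of 9 tested, Calb2, passed (lower, and in 2 of those 8 fits; Pvalb and Sst were dim). The sum of microglial genes was 1692 to 2998 against 305 to 577. Itgam was dim, Cx3cr1 did not pass and had a difference below 0, and 5 of 6 tested genes passed as higher. With 1 array left out this count was 1 to 4: leaving out EU array B gave 1, EP array A gave 2, CU array B, CP array A or EP array B gave 3, and each of the others gave 4. The count includes Cd68, with control signals of 51.5 and 44.9 in CU and of 1.62 and 24.6 in CP. The control mean log2 signal of Cd68 lay under the filter level. Cd68 was tested only through its high epileptogenic arrays, so its place in the count supports nothing about microglia. Astrocyte genes summed to 20058 to 25089 against 13552 to 23749, with 2 of 7 higher (Gfap in all 8 of those fits and Aqp4 in 2). Oligodendrocyte genes (6419 to 14769 against 5098 to 6397) and endothelial genes (1297 to 1670 against 969 to 1293) had higher sums in every epileptogenic array, though none of their 5 and 4 tested genes passed. Median centring of the arrays ended the marker calls of Neurod6 and Aqp4. A fit without the intensity trend ended those of Neurod6, Aqp4, Ptprc and Csf1r, and a fit with no filter those of Aqp4 and Tyrobp.

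Choroid plexus, a tissue that expresses Htr2c strongly, was read separately. None of its 5 tested genes passed in limma (Kl and Kcnj13 were dim), and the summed signal of the list ranged from 491 to 5156 in epileptogenic and from 331 to 5295 in control arrays. The brightest of these genes was Ttr, which encodes transthyretin. The Ttr signals were 151 and 5067 in CU, 3439 and 3995 in CP, 2649 and 4883 in EU, and 301 and 2033 in EP. The lowest signals were those of CU array A and EP array A, and control and epileptogenic arrays overlapped. The part of choroid plexus RNA in the Htr2c difference was not tested. Genes of striatal and central amygdala neurons, regions next to the dissected nuclei, were present, with Penk, an opioid peptide gene, at a mean log2 signal of 10.9. None of the 7 tested passed (Tac1 was dim), and the sum of the list was 1470 to 4282 against 2314 to 4058.

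Htr2a, the other Gq-coupled gene of the list, encodes the 5-HT2A receptor, which is carried by cortical and amygdalar neurons. Its leading probe set, 1369124_at, gave signals of 35.8 and 30.4 in CU, 34.8 and 20.5 in CP, 20.2 and 24.1 in EU and 32.7 and 18.8 in EP. The groups overlapped widely. The group means of log2 signal ran from CU (5.04) through CP (4.74) and EP (4.63) to EU (4.46), each step smaller than the SE of a group difference, 0.55. The difference of -0.34 ± 0.39 (SE, log2) did not pass (limma adjusted p = 0.695), and its 95% interval of -1.22 to 0.53 does not exclude a difference of the size seen for Htr2c. The other 3 Htr2a probe sets were dim, with signals between 0.782 and 32.7, and had differences of -0.74 to 0.01.

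Htr4, which encodes a Gs-coupled receptor, had signals of 81.3 and 48.5 in CU and of 68.2 and 43.3 in CP for its leading probe set, 1391263_at. They were 21.4 and 17.0 in EU and 59.7 and 33.7 in EP. The EU arrays lay below all other arrays, whereas the EP arrays overlapped with the controls. The difference between epileptogenic and control rats was -0.999 ± 0.34 (SE, log2), with an adjusted p of 0.157 in limma and of 0.0252 with the letter as a block. After unpaired training it was -1.72 ± 0.48 (adjusted p = 0.195, and 0.0223 with the block), and after paired training -0.28 ± 0.48 (adjusted p = 0.927, and 0.733 with the block). These do not show that the response differed between trainings, since the interaction of 1.45 ± 0.68 did not pass (limma adjusted p = 1.00, and 0.868 with the block).

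Ordered by group mean log2 signal, Htr4 ran from CU (5.97) through CP (5.76) and EP (5.49) to EU (4.25). Its first 3 groups lay within 1 SE of their neighbours, and EP and EU differed by 1.24 ± 0.48, with a limma adjusted p of 1.00. The dim Htr4 probe set, 1369533_a_at, did not have this order: its EU signals of 4.28 and 24.5 were at the same time the lowest and the highest of the 8. Its difference between epileptogenic and control rats was -0.43 ± 0.73.

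**Figure D3:**
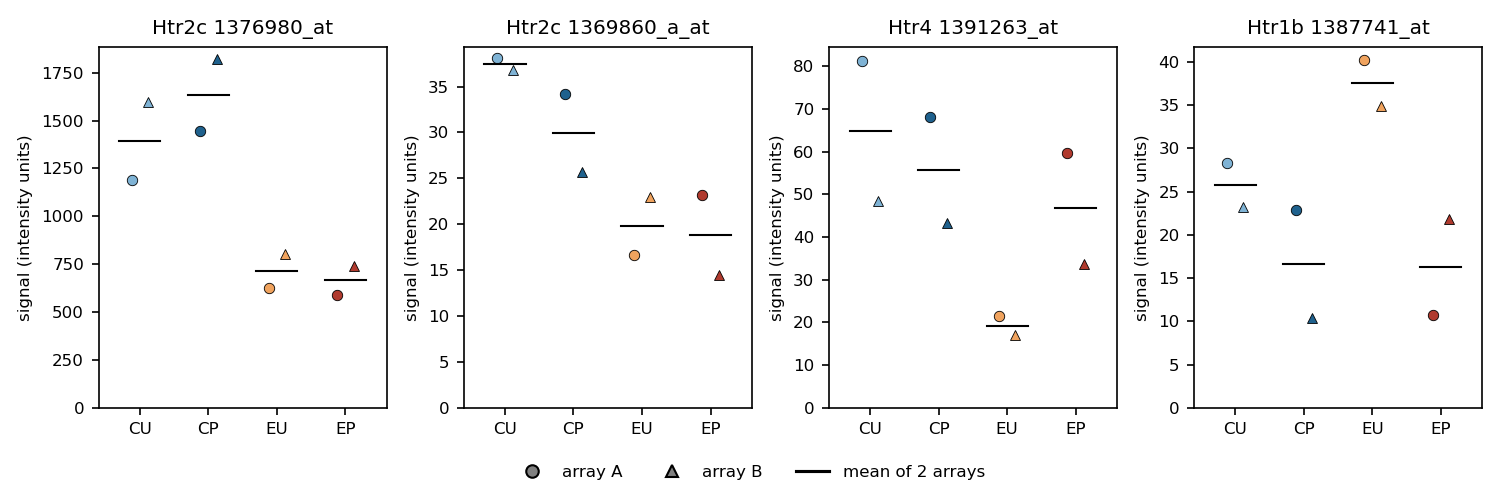
Signal in intensity units (linear axis from 0) of both Htr2c probe sets and of the leading Htr4 and Htr1b probe sets on every array, by group (CU, CP, EU, EP); circles are arrays A, triangles arrays B and lines the mean of 2 arrays. The epileptogenic arrays are below the control arrays for Htr2c, the EU arrays of Htr4 (21.4 and 17.0) are below all others, and the paired arrays of Htr1b are below the unpaired ones by a narrow margin (22.8 against 23.2 at the nearest).

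Htr7, the other Gs-coupled gene, was dim in all of its 3 probe sets. Its leading probe set, 1369119_a_at, gave 32.7 and 15.1 in CU, 46.6 and 10.8 in CP, 8.39 and 17.1 in EU and 2.71 and 13.9 in EP. The 2 arrays of a group lay far apart, and control and epileptogenic signals overlapped. Its difference of -1.38 ± 0.75 (SE, log2) had the opposite sign to the 1.02 ± 0.74 of probe set 1371290_a_at, and the third probe set had -0.81 ± 0.90. No direction can be given for Htr7 from these arrays.

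Htr3a encodes a subunit of the serotonin-gated channel, which in the amygdala is mainly carried by interneurons. Probe set 1369428_a_at gave signals of 33.2 and 39.8 in CU, 48.9 and 21.1 in CP, 19.1 and 22.3 in EU and 30.3 and 16.4 in EP. The 3 brightest arrays were controls, but CP array B lay among the epileptogenic arrays. Group means of log2 signal were 5.19 in CU, 5.00 in CP, 4.48 in EP and 4.37 in EU, and neighbours in this order differed by less than the SE of a group difference, 0.59. The difference was -0.67 ± 0.42 (SE, log2) and did not pass (limma adjusted p = 0.436, 95% interval -1.61 to 0.27).

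Of the Gi/o-coupled receptors, Htr1b and Htr5a did not pass and Htr1a was not tested. Htr1a, which encodes the 5-HT1A receptor found on serotonin neurons and on their targets, was dim, with signals of 29.2 and 11.1 in CU, 6.77 and 18.3 in CP, 16.3 and 18.9 in EU and 28.5 and 11.4 in EP. Its brightest arrays were 1 control and 1 epileptogenic array, and its difference was 0.33 ± 0.62 (SE, log2). Htr1b, which encodes a receptor of axon terminals, had a difference of 0.27 ± 0.46 (limma adjusted p = 0.808, 95% interval -0.77 to 1.31).

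Htr5a gave signals of 47.8 and 21.4 in CU, 19.6 and 20.8 in CP, 19.9 and 18.3 in EU and 22.0 and 29.2 in EP. Apart from CU array A and EP array B, all of its arrays lay between 18.3 and 22.0, close to the filter signal of 20.3. Group means of log2 signal were 5.00 in CU, 4.66 in EP, 4.34 in CP and 4.25 in EU, again with steps below the SE of a group difference, 0.59. The difference between epileptogenic and control rats was -0.21 ± 0.42 (SE, log2; limma adjusted p = 0.838, 95% interval -1.15 to 0.73), and it was 0.079 without control unpaired A.

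The comparison of paired with unpaired training asks which transcripts follow the learned link of tone and shock. For the receptors no difference was found: 0 of the 6 tested genes passed in limma, with or without the letter as a block, and 0 had an unadjusted p under 0.05. In this comparison 0% of all 18625 probe sets passed, and 1.15% (214) had an unadjusted p under 0.05. Differences of the 6 genes lay between -1.01 and 0.51 on the log2 scale. For Htr2c the difference was 0.07 ± 0.19 (SE, 95% interval -0.37 to 0.50), an interval that lies within the size of the epileptogenic difference, while those of the other receptors were wider.

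Htr1b stood lowest in this comparison. Its signals after unpaired training were 28.3 and 23.2 in CU and 40.2 and 34.9 in EU, and after paired training 22.8 and 10.3 in CP and 10.7 and 21.8 in EP. The 4 paired arrays all lay below the 4 unpaired ones, which was so, in either direction, for 0.859% of all tested probe sets. The paired mean log2 signal of Htr1b, 3.94, lay under the filter level, and the unpaired mean, 4.95, above it. Htr1b was thus tested only through its high unpaired arrays, so its place among these probe sets supports nothing about training. The margin between CP array A and CU array B was small, and the difference of -1.01 ± 0.46 (SE, log2) did not pass (limma adjusted p = 1.00, 95% interval -2.05 to 0.03). In control rats alone it was -0.74 ± 0.65 and in epileptogenic rats alone -1.29 ± 0.65. Ordered by group mean log2 signal, EU (5.23) came before CU (4.68), CP and EP (both 3.94), and the widest step in this order, from CU to CP, was that of -0.74 ± 0.65.

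The interaction, which asks whether training acted differently after status epilepticus, passed for 0 of the 6 genes in limma, with or without the block, and 0 had an unadjusted p under 0.05 (0% of all probe sets passed, and 1.47% or 274 had an unadjusted p under 0.05). Values lay between -0.56 for Htr1b and 1.45 for Htr4. That of Htr2c was -0.34 ± 0.38 (SE, log2).

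**Figure D4:**
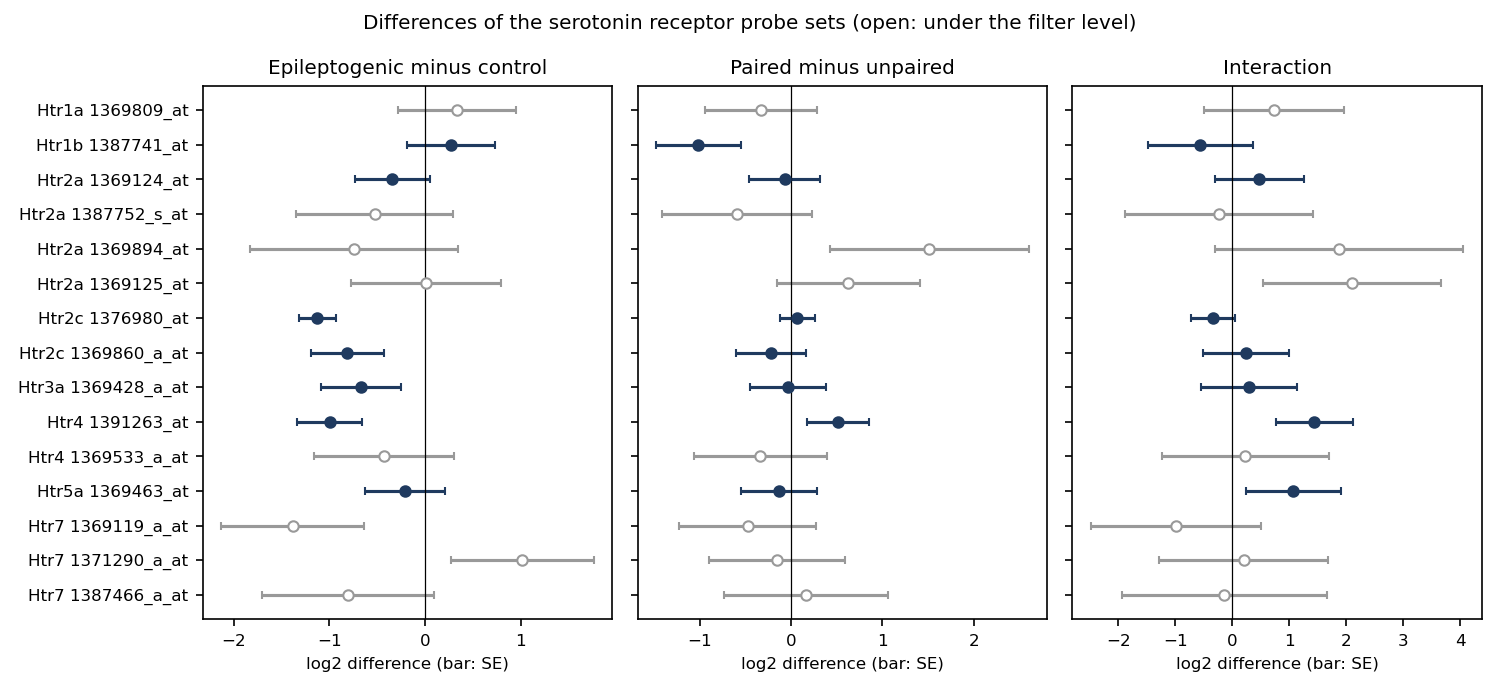
Log2 differences of the 15 serotonin receptor probe sets for epileptogenic minus control, paired minus unpaired and their interaction; points are values of the fit, bars are SE, filled points lie above the filter level and open points below it. The leading Htr2c probe set has the shortest bars and stands at -1.13 in the left panel and at 0.07 in the middle one, and the open points have the widest bars.

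The other serotonin receptor genes on the array gave no test. All 6 of them (Htr1d, Htr1f, Htr2b, Htr3b, Htr5b and Htr6) were dim, and 5 had differences below 0. Htr3b, which encodes the partner subunit of HTR3A, had the lowest, with -2.00 ± 0.66 (SE, log2), with no array above the filter level. The value came from the unpaired arm: it was -3.77 ± 0.94 after unpaired and -0.23 ± 0.94 after paired training, and the interaction of 3.54 ± 1.33 did not pass (limma adjusted p = 1.00). Markers of serotonin neurons were dim or near the level as well. Slc6a4, the serotonin transporter, had a mean log2 signal of 4.75 and Fev 4.48, and Slc22a3 and Gata3 were dim.

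Among genes for the synthesis, transport and breakdown of serotonin, 1 of 7 tested rose, against 2.81% of all tested probe sets. Aldh2, an aldehyde dehydrogenase that acts after monoamine oxidase, rose by 0.90 ± 0.18 (SE, log2; limma adjusted p = 0.0313), but passed in 0 of the 8 fits without 1 array (0.86 to 0.94). Maob, which encodes the monoamine oxidase found mainly in glia and serotonin neurons, had a difference of 0.72 ± 0.17 with adjusted p-values of 0.0514 and, with the block, 0.00411. All its epileptogenic arrays were above all control arrays, against 15.1% of all tested probe sets whose groups did not overlap in either direction (7.77% lower). With the block 16.2% of all tested probe sets passed. Maoa showed 0.31 ± 0.21, Ddc, which encodes the decarboxylase that makes serotonin, -0.48 ± 0.32 and Slc6a4 0.11 ± 0.46, and none of them passed. The median of the 7 genes was 0.31, against -0.11 over all tested probe sets.

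Of the signalling genes behind the receptors 1 passed in each branch, against 2.81% higher and 0.827% lower among all tested probe sets. In the Gq and phospholipase branch, the pathway of HTR2C, it was 1 of 10 tested genes: Plcb3, a phospholipase C gene, with a difference of 2.27 ± 0.45 (SE, log2; limma adjusted p = 0.0279, and 0.0401 with no filter). Plcb3 had a dim control mean of 3.52 and passed the filter only through the 4 epileptogenic arrays, so its place in the count supports nothing about the branch. Plcb1, the phospholipase C gene of cortical neurons, showed -0.69 ± 0.19 (adjusted p = 0.0839, and 0.0118 with the block). The branch had a median of -0.30. In the Gs and cyclic AMP branch, 1 of 18 fell, Prkar2b, which encodes a regulatory protein kinase A subunit, with -0.86 ± 0.18 (adjusted p = 0.0318, and 0.0536 after quantile normalization), and the median was -0.31. In the Gi/o branch, 1 of 12 rose, Rgs10, a regulator of G protein signalling that is abundant in microglia, by 1.22 ± 0.21 (adjusted p = 0.0172), while the median was -0.45. Rgs7 and Rgs4, neuronal regulators of the same family, showed -0.62 ± 0.18 and -0.74 ± 0.22, and passed only with the block (adjusted p = 0.00805 and 0.0142). With the block, 5 Gi/o genes passed as lower and 2 as higher, against 16.2% of all tested probe sets that passed (8.65% lower). In the same fit 3 Gs genes were lower, and 3 Gq genes were lower and 1 higher.

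Among receptor partners and editing enzymes, 1 of 14 rose and 1 fell, against 2.81% and 0.827% of all tested probe sets, with a median of -0.07. The gene that fell was Mpdz, which encodes the multi-PDZ scaffold MUPP1 that binds the end of the 5-HT2C receptor, with -0.77 ± 0.17 (SE, log2; limma adjusted p = 0.0457). S100a10, which encodes p11, a partner of the HTR1B and HTR4 receptors, rose by 1.14 ± 0.25 (adjusted p = 0.0407). The editing enzyme genes Adarb1 and Adar, which act on the Htr2c transcript, showed -0.39 ± 0.24 and -0.10 ± 0.31 and did not pass. With 1 array left out, Rgs10 passed in 5 of the 8 fits (not without control paired A, epileptogenic unpaired B or epileptogenic paired B), Plcb3 in 1 (without epileptogenic paired A), S100a10 in 1 (without epileptogenic unpaired B), and Prkar2b and Mpdz in 0. Median centring of the arrays ended the calls of Aldh2, Rgs10, Prkar2b, S100a10 and Mpdz and not that of Plcb3. Without the intensity trend the same calls ended (limma adjusted p of 0.0618 for Rgs10 to 0.112 for Mpdz) and that of Plcb3 stayed (0.0330). The direction of all these genes was the same in every fit.

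**Figure D5:**
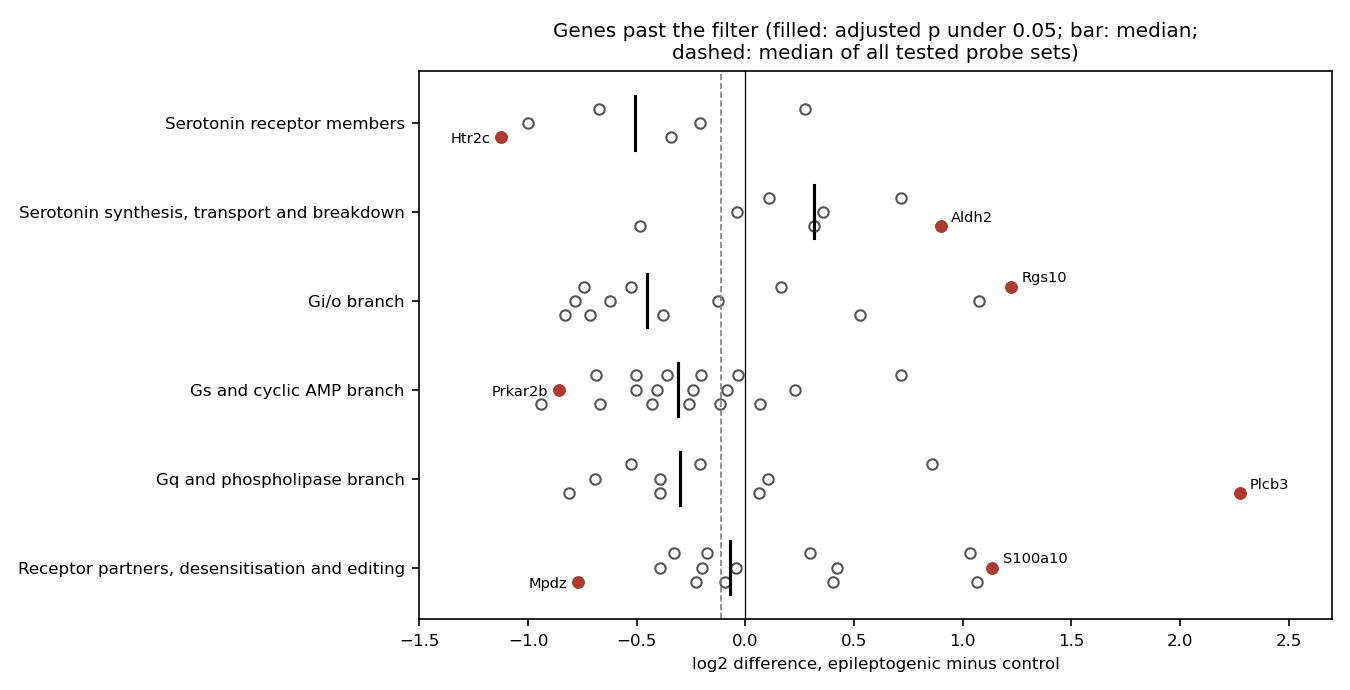
Log2 difference, epileptogenic minus control, of each tested gene (its leading probe set) among the serotonin receptors and in 5 lists of the serotonin pathway. Filled points have an adjusted p under 0.05, black bars are list medians and the dashed line is the median of all tested probe sets (-0.11); Htr2c is the filled point among the receptors, at -1.13, and Plcb3, at 2.27, is the farthest to the right, with a control mean under the filter level.

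Genes with the pattern most like that of each tested receptor over the 8 arrays were taken by Pearson correlation of log2 signals with 10363 other named genes. These correlations describe 8 arrays that share groups and letters, and they carry no test. For Htr2c the nearest were Aak1, a kinase gene of endocytosis (r = 0.985), and Ero1a, an oxidase gene of the endoplasmic reticulum (0.976), and 138 genes had a correlation above 0.9. Aak1 had a difference between epileptogenic and control rats of -0.66 ± 0.16 (SE, log2; limma adjusted p = 0.0570) and Ero1a of -0.55 ± 0.19 (adjusted p = 0.167). For Htr4 they were Dapk1 (0.976) and Cnot7 (0.971), with 65 genes above 0.9, and for Htr2a Hcn2, a channel subunit gene (0.994), and Hmgb1 (0.985), with 40. Htr3a was nearest to Elp3 (0.971) and Bok (0.949), with 26 genes above 0.9. Htr1b was nearest to Bcl2l11 (0.959) and Slc15a4 (0.944), with 7, and Htr5a to Tsc22d2 (0.949) and Gipc2 (0.921), with 3.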

How the data were processed

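The deposited values are signal intensities on a linear scale that the authors made with MAS5, per the submitters' processing notes; its version and scaling target are not given in the sources used here. They came from RNA amplified in 2 rounds. After the 57 control probe sets had been removed, log2 of each signal was taken with no offset. In the platform annotation, 20826 probe sets name a single gene, 436 name several and 9780 none, and gene numbers tied 20758 of them to RefSeq. Where a gene had several probe sets, the brightest on average led and the rest are given beside it. No genome position was used.

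The model had 4 group means and an intensity trend (limma 3.58.1, R 4.3.3; two-sided, Benjamini-Hochberg over 18625 probe sets, threshold 0.05) and was tested on simulated data. Every SE is from it, and the number of arrays limits its precision. The labels call arrays A and B biological replicates. Arrays with the same letter deviated from their group means together (correlations of 0.321 to 0.407 over the 6 pairs of groups). For this reason a fit with the letter as replicate block is printed where it matters to a call. Plots were drawn with matplotlib 3.10.9.

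Other settings were quantile normalization, centring on the median, an offset of 16, no filter or one at the 60th percentile, no trend, array weights, the block, gene means over probe sets, and 1 array left out at a time. The receptors and the gene lists were chosen with earlier results of these data known. The text covers every receptor probe set and names each pathway gene that passed, with a few others as values.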

Additional observations from a re-analysis of the deposited data

Results flagged for a closer look

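Htr5a was picked out for a single array and for opposite directions after the 2 trainings. The log2 signal of control unpaired A was 5.58, against 4.42 for the nearest of the other control arrays. This was the only such array among 30 groups of 4 arrays examined, of which chance gives about 1 in 20. After unpaired training both epileptogenic arrays lay below both controls, and after paired training both lay above them. The difference between these changes was 1.07 ± 0.83 (SE, log2) and did not pass in limma (adjusted p = 1.00).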

How the results depend on the processing

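Over the tested receptor genes, 18 results were recomputed, giving 288 values, of which 261 kept their direction and side of the threshold. The count of probe sets called between epileptogenic and control rats was 677. It was 389 with median centring, 330 without the intensity trend, 3022 with the replicate block and 224 to 435 with 1 array left out, and within 1.5 times in the other settings. The number of receptor genes called was 1, against 0 with median centring, 0 without the trend, 2 with the replicate block and 0 to 1 with 1 array left out. Median centring moved the median difference of all probe sets from -0.11 to -0.01. Small differences that did not pass changed sign 21 times, none with a call. With 1 array left out, Htr1b lay between -0.013 and 0.56 (epileptogenic minus control) and its interaction between -1.13 and 0.015, Htr5a between -0.50 and 0.079, and the Htr3a interaction between -0.31 and 0.90. In the same fits, paired minus unpaired lay between -0.27 and 0.13 for Htr2a, -0.040 and 0.17 for Htr2c, -0.34 and 0.27 for Htr3a and -0.42 and 0.16 for Htr5a. It was 0.037 for Htr2a and 0.085 for Htr3a after quantile normalization, 0.022 and 0.057 after median centring, and -0.076 for Htr2c over the mean of its probe sets. The causes were not tested. Pairing by letter changed the calls given in the text and no other receptor call. Dim signals limit what can be said of Htr1a, Htr7 and the further probe sets of Htr2a and Htr4.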
